A study of Mus musculus with 6 samples.

Results

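A set of 78 nuclear genes named for protein subunits of the mitochondrial ribosome was followed through RNA-seq libraries of aged mouse muscle. Members were the protein-coding genes whose symbol starts with Mrpl or Mrps followed by a digit and whose deposited value averaged at least 1 over the 6 libraries. They are 78 of 20311 genes that pass this minimum, 49 named for the large subunit (Mrpl) and 29 for the small subunit (Mrps). No protein-coding gene with such a name fell under the minimum, and 77 members averaged at least 100. The exception was Mrpl53, with a mean value of 10.4.

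All libraries came from calf muscle of male C57BL/6 mice that were 24 to 26 months old at collection. The diets were a high-fat diet with 0.1% nobiletin (HF.NOB), the same high-fat diet without it (HF), and a regular diet (RD), with 5 to 6 months on the high-fat diets. Nobiletin is a citrus flavonoid and an agonist of the ROR nuclear receptors, which are part of the circadian clock. Tissue was taken at ZT18, in the active phase of the mice, and at ZT6, in their resting phase, and each diet and time has 1 library, so no condition has replicates. The study's legend for its RNA-seq heat map gives several samples, and its methods call all samples counted this way biologically independent. Whether a library here held the RNA of 1 animal or of several is not clear from the labels. No test between conditions of the same time was therefore possible, and folds below are ratios of single libraries.

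The mitochondrial ribosome translates the few messenger RNAs that are made inside mitochondria, all of which encode subunits of the respiratory chain and ATP synthase. Its ribosomal RNAs come from the mitochondrial genome, whereas its proteins are encoded in the nucleus, made in the cytosol and imported. Many of these proteins descend from bacterial ribosomal proteins, and the others are found only in mitochondria. In muscle, the supply of mitochondrial ribosomes is tied to the assembly of the respiratory chain, since subunits from both genomes must meet in the inner membrane.

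Libraries held 23248663 to 31837501 reads on genes. The deposited values are reads times 1 factor per library, with 1 read worth 0.956 to 1.33. How that factor was set is not stated, and the values are not corrected for transcript length. Muscle fibre markers took 12.6% to 15.2% of the reads of each library. The HF.NOB library at ZT6 stood apart from the others, and it decides most of what follows. In HF.NOB against HF, 9.47% of all tested genes differed upward and 12.5% downward by 1.5-fold or more at ZT18, and 20.9% upward and 22.4% downward at ZT6. The HF library at ZT18 held liver transcripts, with a summed value of 1507 over 6 liver markers and at most 12 in the other libraries.

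Promoter sequences are shown for 5 members that mark both ends of the results: Mrpl52 and Mrps24, which had the highest folds of their subunits in HF.NOB against HF at ZT6 among members averaging at least 100, Mrpl12 and Mrps21, 2 of the most abundant members per kilobase, and Mrps2, which had the lowest fold of the small subunit. Each line gives 250 bases before and 50 bases from the start site onward, on the gene's strand, from RefSeq on GRCm38.p6. Capitals mark matches, on either strand, to the NRF1 motif (the longest capital run in the lines of Mrpl12 and Mrps21, with any base allowed at its sixth place from one side), CCGGAA (ETS factors such as GABP), AAGATGGCG (YY1), CACGTG (the E-box of clock factors) and AGGTCA (the core of ROR sites). NRF1 and GABP are known activators of nuclear genes for mitochondria.
Mrpl52 (chr14:54426659-54426958, + strand): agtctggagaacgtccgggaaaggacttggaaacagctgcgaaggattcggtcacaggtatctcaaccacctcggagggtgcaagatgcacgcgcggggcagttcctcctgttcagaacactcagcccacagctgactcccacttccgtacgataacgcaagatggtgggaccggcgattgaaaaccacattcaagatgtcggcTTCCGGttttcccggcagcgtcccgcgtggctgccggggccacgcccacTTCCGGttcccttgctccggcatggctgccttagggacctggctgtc
Mrps24 (chr11:5707652-5707951, - strand): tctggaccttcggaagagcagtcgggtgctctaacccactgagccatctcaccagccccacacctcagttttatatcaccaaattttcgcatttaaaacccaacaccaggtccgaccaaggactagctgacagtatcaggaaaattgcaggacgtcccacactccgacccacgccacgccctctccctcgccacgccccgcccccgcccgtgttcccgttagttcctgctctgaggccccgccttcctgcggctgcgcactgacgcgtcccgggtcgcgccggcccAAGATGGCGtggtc
Mrpl12 (chr11:120484387-120484686, + strand): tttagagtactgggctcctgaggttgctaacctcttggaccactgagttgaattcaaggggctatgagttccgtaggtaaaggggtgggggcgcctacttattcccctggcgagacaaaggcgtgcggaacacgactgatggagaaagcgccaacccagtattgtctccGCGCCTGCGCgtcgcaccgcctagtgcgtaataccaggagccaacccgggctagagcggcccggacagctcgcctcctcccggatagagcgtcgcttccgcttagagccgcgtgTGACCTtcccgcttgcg
Mrps21 (chr3:95871465-95871764, - strand): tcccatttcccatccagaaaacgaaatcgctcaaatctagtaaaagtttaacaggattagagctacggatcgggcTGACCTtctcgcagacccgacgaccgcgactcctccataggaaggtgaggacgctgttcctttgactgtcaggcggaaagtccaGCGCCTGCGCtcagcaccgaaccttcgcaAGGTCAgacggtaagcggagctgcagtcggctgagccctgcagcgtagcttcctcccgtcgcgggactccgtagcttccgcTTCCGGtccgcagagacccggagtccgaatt
Mrps2 (chr2:28467816-28468115, + strand): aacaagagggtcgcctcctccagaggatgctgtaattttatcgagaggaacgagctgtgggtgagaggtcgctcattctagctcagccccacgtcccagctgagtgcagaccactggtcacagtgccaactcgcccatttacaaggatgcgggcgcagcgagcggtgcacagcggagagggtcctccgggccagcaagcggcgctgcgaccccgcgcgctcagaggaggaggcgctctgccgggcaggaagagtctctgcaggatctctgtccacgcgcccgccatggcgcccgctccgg

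Mrpl52 holds CCGGAA on the reverse strand at 2 places, which start at positions -46 and 4 counted from the first transcribed base as 1. Mrps24 holds AAGATGGCG from position 37, and Mrps2 holds none of the motifs. Mrpl12 holds an NRF1 match on the reverse strand from position -81 and AGGTCA on the reverse strand from position 34. Mrps21 holds an NRF1 match from position -91 and CCGGAA from position 20, both on the reverse strand. It holds AGGTCA at 2 places, on the reverse strand from position -175 and on the gene's strand from position -62. A match describes the letters in this window and no more.

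RefSeq windows were found for 69 of the 78 members, as 75 windows. CCGGAA stood in 57.3% of them, against 23.5% of 15404 windows of expressed protein-coding genes and 14.9% of all 32851 windows. The NRF1 motif stood in 17.3% of member windows, against 8.29% of expressed windows and 4.6% of all, and AAGATGGCG in 10.7%, against 2.45% and 1.40%. At least 1 of these 3 motifs was found in 72% of member windows, against 30.4% of expressed and 18.9% of all windows. The 66 windows of cytosolic ribosomal proteins held CCGGAA in 48.5%, and the NRF1 motif and AAGATGGCG in 7.58% each. None of these differences was tested. The motifs of the clock did not stand out in this way. CACGTG stood in 9.33% of member windows, against 9.12% of expressed and 7.15% of all windows, and AGGTCA in 14.7%, against 13.3% and 16.3%. TAGGTCA, the same core with the T that often precedes it in ROR sites, was found only in the window of Mrpl53. That is 1.33% of member windows, against 1.97% of expressed and 2.61% of all windows. In HF.NOB against HF at ZT6, medians of the log2 fold of the members were 0.73 with CCGGAA and 0.61 without, 0.59 with the NRF1 motif and 0.65 without, 0.55 with AAGATGGCG and 0.67 without, 0.77 with CACGTG (5 genes) and 0.63 without, and 0.70 with AGGTCA and 0.63 without. These differences were not tested.

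Levels of the members per kilobase of transcript spanned a wide range. The highest mean values per kilobase were those of Mrps21 (3416), a small-subunit protein with a bacterial homologue, Mrpl14 (2437) and Mrpl2 (1644), both of the large-subunit body, and Mrpl12 (2156), the stalk protein that also binds the mitochondrial RNA polymerase. The lowest among members averaging at least 100 were Mrps25 (90.1), Mrpl19 (93.9), Mrps35 (101) and Mrps22 (113). The lengths used here are those of the longest annotated transcript, which for Mrps25 is 6073 nucleotides, so a gene with a long and rarely used isoform can be placed too low. Mrps21 had 488 nucleotides. The median value per kilobase of large-subunit members was 1.40 to 1.62 times that of small-subunit members over the 6 libraries, and the summed values stood at 2.11 to 2.21.

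The main pattern of the family was 1 high library. Of 78 members, 76 had their highest value of all 6 libraries in HF.NOB at ZT6, against 32.5% of all genes, and the exceptions, Mrpl19 and Mrps2, were highest in HF at ZT18. For 70 members the gap between HF.NOB at ZT6 and the next library was larger than the whole range of the other 5, as it was for 13.3% of all genes and 22.6% of the 10006 protein-coding genes that averaged 100 or more. Over those 5 libraries the members hardly varied: their median range was 0.20 on the log2 scale, against 0.29 for the same 10006 genes. At ZT18, members took 0.226% of all reads in HF.NOB, 0.250% in HF and 0.224% in RD. At ZT6, they took 0.358% in HF.NOB, 0.237% in HF and 0.224% in RD. In such bulk tissue, fewer cells of a type and less RNA per cell cannot be told apart.

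**Figure D1:**
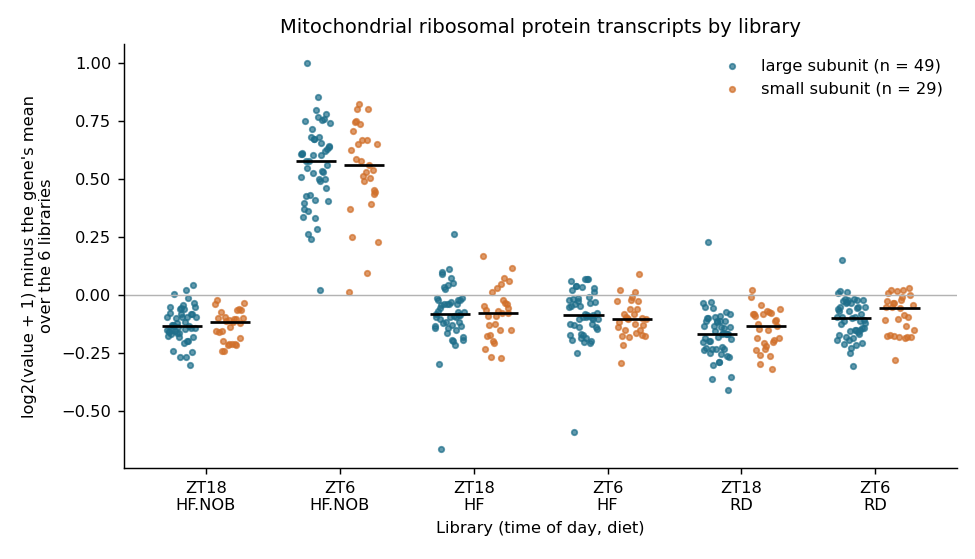
Level of each member in each library, as log2(value + 1) minus the gene's own mean over the 6 libraries, for 49 large-subunit and 29 small-subunit genes, with black bars at the medians. In HF.NOB at ZT6, 76 of 78 members had their highest value, and the point far below the others in the 2 HF libraries is Mrpl53, which had few reads.

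HF.NOB against HF at ZT6 asks what nobiletin changes on top of the high-fat diet in the resting phase. The members were higher nearly throughout: 77 of 78 had a higher value in HF.NOB, where 50.6% of all genes did, and 48 were at least 1.5-fold higher, where 20.9% of all genes were. None was at least 1.5-fold lower, where 22.4% were. Their median log2 fold was 0.65, with quartiles of 0.51 and 0.82, and the median of all genes tested was 0.00. At least 2-fold higher were 3 members, a smaller share than the 8.36% of all genes that were.

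Among members averaging at least 100, the highest folds of the large subunit were those of Mrpl52, Mrpl22 and Mrpl11. Mrpl52, a protein found only in mitochondria, had values of 481 in HF.NOB, 485 in HF and 522 in RD at ZT18, and of 1003 in HF.NOB, 488 in HF and 488 in RD at ZT6. Its log2 fold at ZT6 was 1.04, with a 95% counting interval of 0.87 to 1.21 that covers counting error only. The 5 other libraries lay close together and HF.NOB at ZT6 lay far above them. Mrpl22, at the exit of the peptide tunnel, had 625 in HF.NOB and 312 in HF at ZT6, a log2 fold of 1.0. Mrpl11, at the base of the stalk that recruits translation factors, had 1422 in HF.NOB and 730 in HF, a log2 fold of 0.96.

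In the small subunit, Mrps24, Mrps18c and Mrps30 led. Exons of Mrps24 and Mrps18c overlap another gene on the same strand, and those of Mrps30 overlap one on the opposite strand. Mrps24, with a bacterial homologue at the entry of the messenger RNA, had values of 663 in HF.NOB, 656 in HF and 696 in RD at ZT18, and of 1210 in HF.NOB, 604 in HF and 745 in RD at ZT6. Its log2 fold of HF.NOB over HF was 0.02 at ZT18 and 1.0 at ZT6. HF at ZT6 was the lowest of the 6 libraries, so the fold over RD was smaller, at 0.70. Mrps18c had a log2 fold of 0.97 and Mrps30 of 0.96, and structures of the mammalian ribosome place the Mrps30 protein in the large subunit despite its name. Mrpl53 had the highest fold of all, 1.59, with values of 20.004 in HF.NOB and 5.99 in HF. It rests on few reads, with as few as 5 in a library, and its exons overlap another gene on the same strand.

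At the other end stood Mrpl19, the only member that was lower in HF.NOB. Mrpl19, a large-subunit protein with a bacterial homologue, had values of 473 in HF.NOB, 561 in HF and 399 in RD at ZT18, and of 473 in HF.NOB, 490 in HF and 420 in RD at ZT6. Its log2 fold at ZT6 was -0.05, with a counting interval of -0.25 to 0.15, and it was one of 2 members without a peak in HF.NOB at ZT6. Mrps2 had 485 in HF.NOB and 473 in HF at ZT6, a log2 fold of 0.04 whose counting interval also spans 0, as did that of Mrps5, at 0.08. Mrpl39, Mrpl3, which lies near the catalytic centre, and Mrps10 had log2 folds of 0.22, 0.22 and 0.23.

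**Figure D2:**
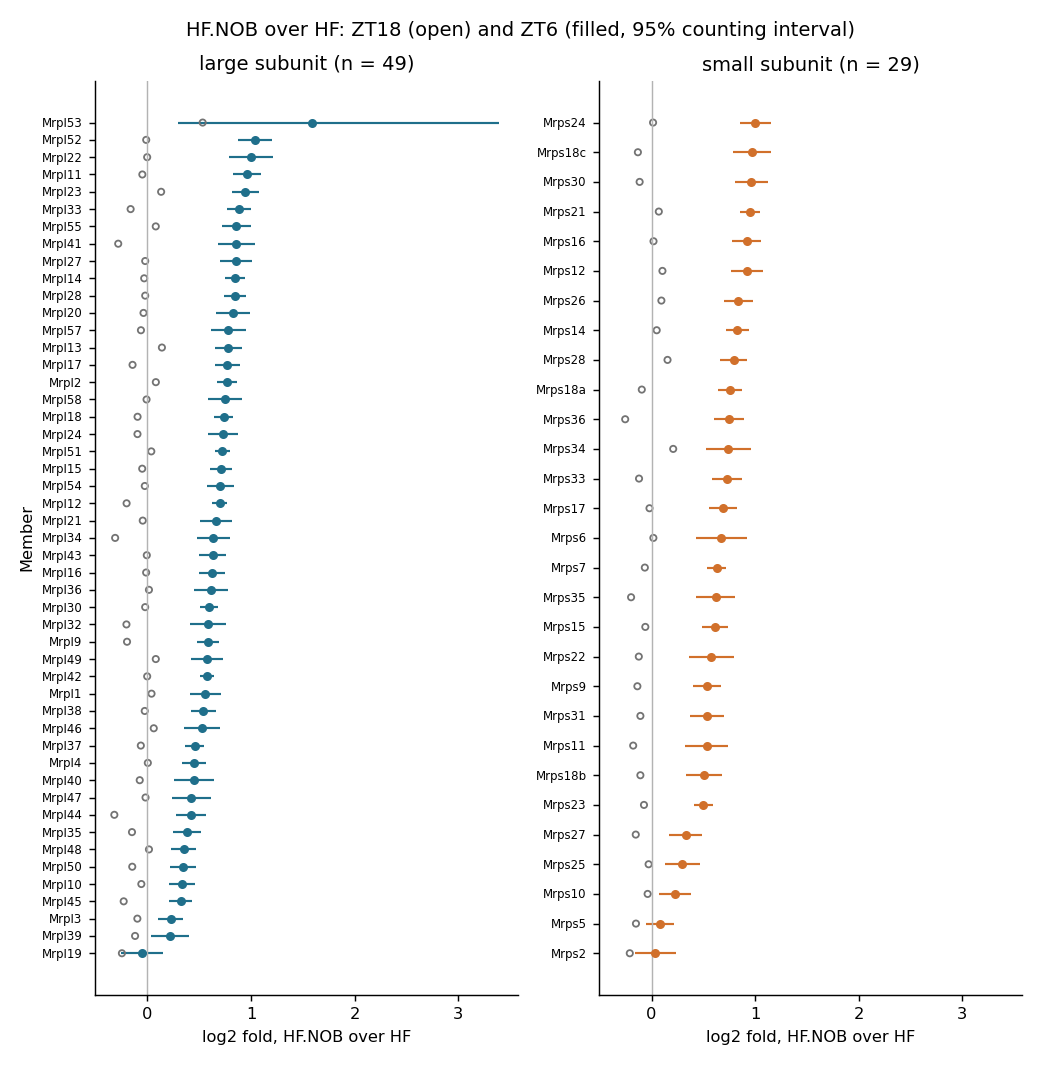
Log2 fold of HF.NOB over HF for each member, large subunit left and small subunit right, with ZT18 as open circles and ZT6 as filled circles with 95% intervals for counting error only. At ZT6, 77 of 78 members lie above 0, with a median of 0.65, and at ZT18 the median is -0.05.

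Both subunits shared this pattern. At ZT6 the median log2 fold was 0.64 over the 49 large-subunit genes and 0.67 over the 29 small-subunit genes, and 30 and 18 of them were at least 1.5-fold higher. The difference of -0.03 turned to 0.04 after a change of membership. Mrps30 and Mrps18a, whose proteins sit in the large subunit, were moved there. Mrps36, which belongs to the 2-oxoglutarate dehydrogenase complex, was left out. Genes are not replicates, and this difference was not tested.

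By place in the ribosome, the stalk genes ranged widely: Mrpl11 was at 0.96, Mrpl12 at 0.70 and Mrpl10 at 0.34. Around the tunnel exit, where the new protein leaves toward the membrane, log2 folds were 1.0 for Mrpl22, 0.94 for Mrpl23, 0.77 for Mrpl17, 0.73 for Mrpl24, 0.43 for Mrpl47 and 0.32 for Mrpl45, the protein that anchors the ribosome to the inner membrane. The 6 genes of the central protuberance, the crest of the large subunit, had a median of 0.53. They ran from 0.35 for Mrpl48 through 0.45 for Mrpl40, 0.53 for Mrpl46, 0.54 for Mrpl38 and 0.74 for Mrpl18 to 0.86 for Mrpl27. Mrps12, of the decoding region, was at 0.92, and Mrpl58, a peptidyl-tRNA hydrolase built into the ribosome, at 0.75. The 46 members with a bacterial homologue had a median of 0.69 and the 31 found only in mitochondria 0.57. With the length of the transcript taken off, as described next, the order turned round, to 0.13 and 0.21. With length taken off in this way, the stalk genes had a median of 0.05 and those of the tunnel exit 0.25. The central protuberance had -0.04, with 3 of its 6 genes above 0, and Mrps12 was at 0.10. The differences between places were not tested.

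Transcript length moved with these folds. Over protein-coding genes that averaged 100 or more, the Spearman correlation across genes of length with log2 fold in HF.NOB against HF was 0.08 at ZT18 and -0.75 at ZT6 (n = 10006). Over the 78 members it was -0.38 at ZT6. Members are shorter than most genes, with a median length of 1866.5 nucleotides against 3317.5 for protein-coding genes tested. Among genes of 600 to 900 nucleotides the median log2 fold was 0.85 for 12 members and 0.83 for 211 other genes. At 900 to 1200 nucleotides it was 0.67 for 12 members and 0.78 for 365 others, at 1200 to 1600 it was 0.59 for 8 members and 0.60 for 638 others, and at 1600 to 2200 it was 0.58 for 8 members and 0.43 for 1239 others. Above 2200 nucleotides it was 0.58 for 36 members and -0.12 for 8575 others. This last class is open at its upper end, so members and others in it were not matched for length. Lengths in these classes are those of the longest annotated transcript. Between 600 and 1600 nucleotides, the members' medians were thus close to or below those of other genes, and above 1600 nucleotides they were higher.

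After the typical fold of equally long genes was taken off each member, the median was 0.13, with quartiles of -0.02 and 0.51. By this measure 55 of 78 were above 0, where 44.4% of all genes were, and 16 were at least 1.5-fold higher, where 11.1% of all genes were. The 39 members at or under the median length had a median of 0.00, and the 39 longer ones 0.51. The highest of these values were 1.39 for Mrpl17 (7300 nucleotides), of the tunnel exit, and 1.22 for Mrpl13 (6008 nucleotides). Both exceed the folds before subtraction, since the typical fold taken off at these lengths was below 0. The length chosen for a gene weighs on this result. The median was 0.06 with the length of the principal transcript, 0.17 with the mean length of the annotated transcripts and 0.20 with the coding length, and the number of members at least 1.5-fold higher was 15, 18 and 3.

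**Figure D3:**
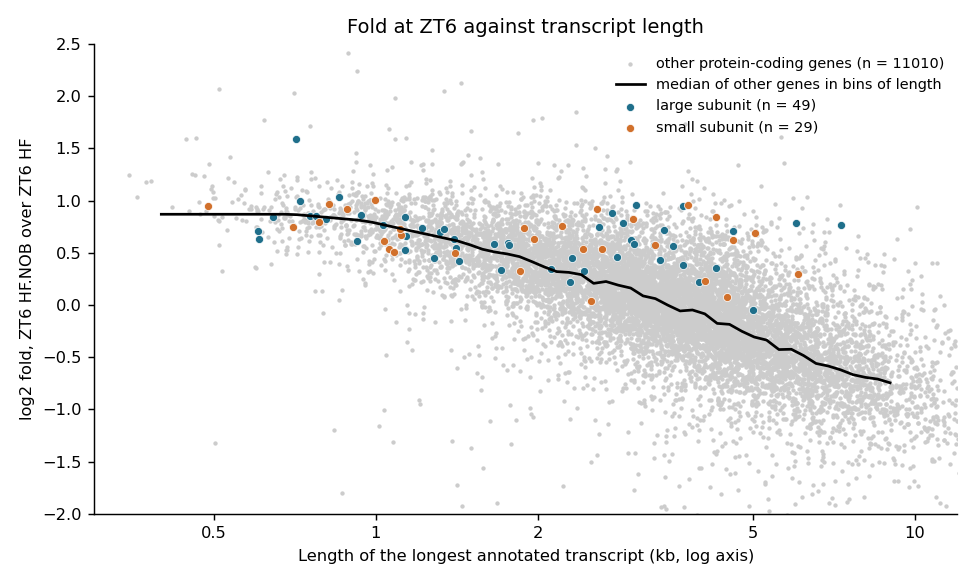
Log2 fold of HF.NOB over HF at ZT6 against the length of the longest transcript on a log axis, for large-subunit (n = 49) and small-subunit (n = 29) members and 11010 other protein-coding genes that averaged 50 or more in grey, with their median in bins of length as a black line. Short members lie around the line. Members above 2200 nucleotides have a median of 0.58 and other genes above that length one of -0.12, not matched for length within this open class.

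Other gene groups were high in the same library. The 76 cytosolic ribosomal proteins measured, which build the ribosomes of the cytosol, had a median log2 fold of 1.01 at ZT6, and 76 of them were at least 1.5-fold higher. The 36 nuclear subunits of complex I, the entry of electrons into the respiratory chain, had a median of 0.84. After subtraction for length these were 0.31 and 0.10, against 0.13 for the members. Markers of blood and of other cell types moved as well. The 5 red blood cell markers summed to 14519 in HF.NOB and 1575 in HF at ZT6, and the 4 neutrophil markers to 528 in HF.NOB and 31.9 in HF, with 5429 and 132 in RD. At ZT18, these sums were 1711 in HF.NOB, 2094 in HF and 4377 in RD for red blood cells, and 23.9 in HF.NOB, 36.1 in HF and 315 in RD for neutrophils. RD thus had more blood transcripts than HF at both times, where the median log2 fold of the members in HF against RD was 0.08 at ZT18 and 0.01 at ZT6. The 6 adipocyte markers all stood higher in HF.NOB at ZT6, with sums of 5536 in HF.NOB and 2356 in HF, and the 5 endothelial markers all lower, with sums of 5873 in HF.NOB and 8028 in HF. Of 8 macrophage and leukocyte markers 4 were higher. The part of these cells in the folds of the members was not tested.

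At ZT18, in the active phase, the same comparison gave no such difference. Members had a median log2 fold of -0.05 and 21 of 78 members were higher in HF.NOB, where 49.9% of all genes were. No member was 1.5-fold higher or lower, where 9.47% and 12.5% of all genes were. In all, 56 members were higher in HF.NOB at ZT6 and below HF at ZT18, where 25.2% of all genes were, and for 42 of these the counting interval at ZT18 spanned 0. The lowest folds at ZT18 were those of Mrpl44, a protein with a ribonuclease fold near the exit of transfer RNA, at -0.32, Mrpl34 at -0.31 and Mrpl41 at -0.28 in the large subunit, and of Mrps36 at -0.25, Mrps2 at -0.21 and Mrps35 at -0.20 in the small one. The highest among members averaging at least 100 were Mrps34 at 0.21, Mrps28 at 0.15 and Mrpl13 at 0.14. Mrpl53, with few reads, was at 0.53. Mrpl44 had values of 606 in HF.NOB, 756 in HF and 612 in RD at ZT18, so HF was the high library and HF.NOB was close to RD.

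HF against RD asks how the high-fat diet without nobiletin differs from the regular diet. Per the study's methods these diets came from different suppliers, so the contrast does not isolate fat content. At ZT6 the members did not move as a group: 41 of 78 were higher in HF, where 48.1% of all genes were, with a median log2 fold of 0.01. None was 1.5-fold higher and only Mrpl53, with few reads, was 1.5-fold lower, against 12.3% and 11.6% of all genes. Among members averaging at least 100, the outer folds were 0.29 for Mrpl34, 0.27 for Mrps25 and 0.25 for Mrpl3 on the high side, and -0.30 for Mrps24, -0.23 for Mrpl20 and -0.23 for Mrps30 on the low side.

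At ZT18 the members leaned toward HF by a small amount. Of 78, 56 were higher in HF, where 48% of all genes were, and the median log2 fold was 0.08. No member was 1.5-fold higher, where 15.7% of all genes were, and Mrpl53 was 1.5-fold lower, where 11.9% were. Mrpl19 had the highest fold at 0.49, with 561 in HF and 399 in RD. Mrpl12 had 2825 in HF and 2149 in RD, a log2 fold of 0.39, Mrpl46 had 518 in HF and 396 in RD, and Mrps11 had 401 in HF and 306 in RD, both at 0.39. Exons of Mrpl46 and Mrps11 overlap on opposite strands, and without a stated strand of counting, reads in the shared stretch cannot be told apart. Mrpl23, of the tunnel exit, was lowest among members averaging at least 100, at -0.19. Complex I subunits had a median of 0.18 in this comparison, and all 76 cytosolic ribosomal proteins were lower in HF, with a median of -0.30. The difference between these groups was not tested. Markers of other cell types moved more than the members here. Beside the liver transcripts of this HF library, given above, 5 of 6 adipocyte markers were higher in HF (median log2 fold 1.60), as were 8 of 8 macrophage and leukocyte markers (0.26) and 5 of 5 endothelial markers (0.26), whereas all 5 red blood cell markers (-1.09) and all 4 neutrophil markers (-2.98) were lower. Their part in the folds of the members was not tested.

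The diets could be tested only by taking the 2 times as replicates, which assumes the same difference at both. With edgeR's quasi-likelihood test on the recovered reads, diet and time as additive terms and Benjamini-Hochberg adjustment over all genes, 3 of 77 members tested rose in HF against RD: Mrpl12 (log2 fold 0.29, adjusted p = 0.036), Mrpl3 (0.28, adjusted p = 0.039) and Mrpl19 (0.37, adjusted p = 0.043). No member fell. Among all genes, 4.33% were called higher and 3.59% lower, so the share of members called was close to that of other genes. None was called with DESeq2 or with all 6 libraries in 1 fit. In HF.NOB against HF over both times, 0 members and 0 of 14837 genes were called by edgeR, a background of 0%, and 0 members had an unadjusted p under 0.05. DESeq2 called 0 members as well. Both fits take the same difference at both times, which the members' median log2 folds of -0.05 at ZT18 and 0.65 at ZT6 do not meet. That gap between the times enters the error of the fits, so the absence of calls cannot decide whether members differed at ZT6. The median log2 fold of the members in the edgeR fit was 0.28, a value pooled over these unlike times.

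HF.NOB was also set against RD. At ZT18, 42 of 78 members were higher in HF.NOB, where 50.4% of all genes were, with a median log2 fold of 0.03, so the lean toward lower values seen against HF, where 21 were higher, was not there against RD. At ZT6 all 78 were higher, where 48.6% of all genes were, with a median of 0.66, and 49 were at least 1.5-fold higher, where 21.8% were. These folds share the HF.NOB library with the comparison against HF. Mrpl14 led at ZT6, with 2583 in HF.NOB and 1228 in RD, a log2 fold of 1.07, and Mrps5 was lowest at 0.07.

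Between the times of day, folds were large on 1 diet. In HF.NOB all 78 members were lower at ZT18 than at ZT6, although Mrpl19 rounded to 473 at both, where 50.4% of all genes were, with a median log2 fold of -0.74, and 53 were at least 1.5-fold lower, where 21.4% were. In HF, 45 of 78 were higher at ZT18, where 49.6% of all genes were, with a median of 0.03. In RD, 22 were higher, where 47.1% were, with a median of -0.08. Mrpl41 had 397 at ZT18 and 828 at ZT6 in HF.NOB, a log2 fold of -1.06, 482 at ZT18 and 457 at ZT6 in HF, and 436 at both times in RD. Mrpl9 had the highest fold in HF, 0.29, with 1601 at ZT18 and 1313 at ZT6, and Mrpl27 the lowest in RD, -0.27, with 521 at ZT18 and 629 at ZT6. The high values of HF.NOB at ZT6 enter the first of these contrasts, and the difference between diets was not tested.

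**Figure D4:**
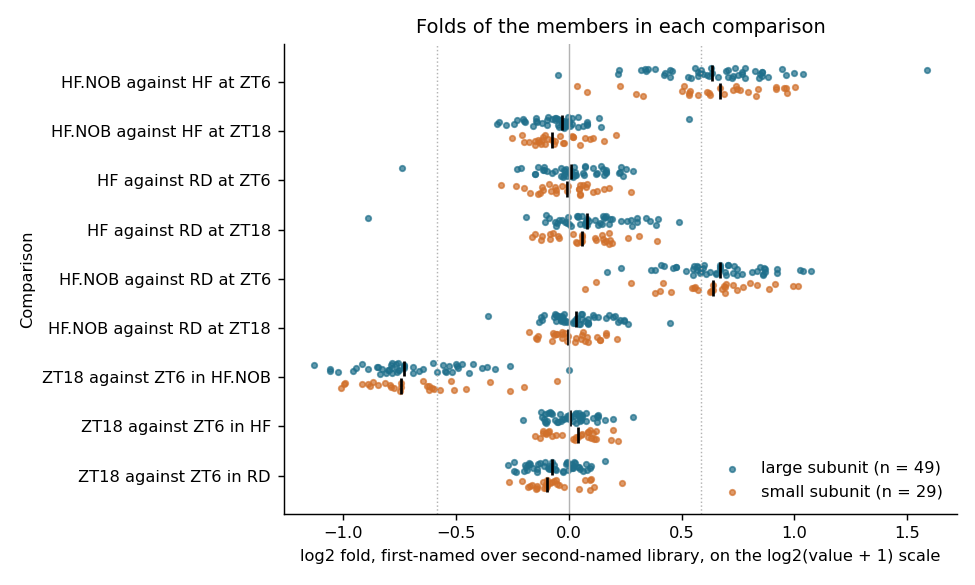
Log2 fold of each member in the 9 comparisons, first-named library over second-named, with medians as black bars, dotted lines at 1.5-fold, and 49 large-subunit and 29 small-subunit genes. The 3 comparisons that include HF.NOB at ZT6 have medians of 0.65, 0.66 and -0.74, and the other 6 lie between -0.08 and 0.08.

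The other genes of mitochondrial translation were less uniform at ZT6 in HF.NOB against HF. Among 5 mitoribosomal proteins with other names, Chchd1 was at 0.88, Aurkaip1 at 0.84, Gadd45gip1 at 0.83, the GTP-binding Dap3 at 0.52 and Ptcd3 at 0.03. Of all genes, 50.6% were higher and 20.9% at least 1.5-fold higher. Before subtraction for length, most of these lists lay nearer to those shares than the members did. Of 24 assembly factors, 19 were higher and 5 (20.8%) at least 1.5-fold, with a median of 0.36, from 1.11 for Malsu1, which keeps the large subunit from joining too early, to -0.15 for Tfb1m, a ribosomal RNA methyltransferase. Of 16 translation factors 10 (62.5%) were higher, with a median of 0.08. Slirp, a partner of Lrpprc in stabilising mitochondrial messenger RNA, was at 0.99 and Taco1, an activator of cytochrome c oxidase translation, at -0.55. Of 20 genes for charging transfer RNAs 14 (70%) were higher, with a median of 0.17. Among them Lars2, the leucine enzyme, had 39778 in HF.NOB, 6225 in HF and 61349 in RD at ZT6, but 6605 in HF.NOB, 7108 in HF and 5792 in RD at ZT18, so its log2 fold of 2.68 at ZT6 goes with an even higher value in RD. Of 9 genes of mitochondrial transcription and genome upkeep 6 (66.7%) were higher, with Ssbp1, which binds single-stranded DNA, at 0.74 and Polg, the polymerase, at -0.31. After subtraction for length, this order was not kept. Medians were then 0.13 for the members and for the 5 proteins with other names, 0.09 for assembly and -0.08 for translation factors. They were 0.19 for the genes for charging transfer RNAs and 0.22 for those of transcription and genome upkeep. These differences between lists were not tested.

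The ribosomal RNAs that these proteins bind are encoded by the mitochondrial genome. mt-Rnr1, of the small subunit, had 12968 in HF.NOB, 12581 in HF and 11874 in RD at ZT18, and 24895 in HF.NOB, 9753 in HF and 11415 in RD at ZT6. mt-Rnr2, of the large subunit, had 33542 in HF.NOB, 33251 in HF and 26794 in RD at ZT18, and 44866 in HF.NOB, 28868 in HF and 28145 in RD at ZT6. Both were highest in HF.NOB at ZT6, as were 32.5% of all genes, with log2 folds over HF of 1.35 and 0.64. These folds were not corrected for length.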

How the data were processed

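RNA-seq values of 6 calf muscle libraries were used, 1 for each diet and time. Per the labels and the study's methods, the authors used TopHat2 2.0.12 for alignment to mm10 and Cufflinks 2.2.1 to quantify genes. The deposited table holds a normalized signal for 26294 genes. Of its values, 100% were whole multiples, within 0.001, of the smallest value of their column, so reads could be recovered. How the deposited values were scaled and whether strand was used in counting is not stated in these sources, and the table had 0 columns of other samples. GENCODE M21 on GRCm38 gave names and lengths, with 99.4% of identifiers matched without their version.

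Log2 folds were those of values plus a pseudocount of 1, over the 20311 genes whose mean reached 1. The length trend was the median fold in 50 bins of transcript length, over 11010 protein-coding genes averaging 50 or more outside the lists of mitochondrial translation. Reads per library bound the precision, and intervals cover counting error only. For single genes they are 95% intervals for the ratio of 2 counts. edgeR 4.0.16 and DESeq2 1.42.0 in R 4.3.3 tested the diets with the times as replicates, and whole reads entered both. The steps were tested on simulated data. Other steps ran in Python 3.11.15 with pandas 2.3.3, SciPy 1.17.1 and NumPy 2.4.6, and figures were drawn with Matplotlib 3.10.9.

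Named members were those with the outer folds of each subunit among members with a mean of at least 100, the 4 highest and 4 lowest per kilobase, those that ran against the median, those of the structural groups, and the outer folds of the other lists. Mrpl53, Mrpl13 after subtraction for length, and the sequences shown were chosen after their values were seen. The members and lists were chosen with earlier results of these data known. Of the members, 33 have exons that overlap another gene, 28 of them on the opposite strand. Alternatives were other scalings, pseudocounts, minimum means, memberships and lengths. Reads themselves were not analysed here.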

Additional observations from a re-analysis of the deposited data

Results flagged for a closer look

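The median log2 fold of the members in HF.NOB against HF was -0.046 at ZT18 and 0.65 at ZT6. These medians have opposite signs, and 56 of 78 members were higher in HF.NOB at ZT6 and lower at ZT18, against 25.2% of all genes, with a counting interval at ZT18 that spanned 0 for 42 of the 56. With 1 library per condition this difference was not tested.

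The median log2 fold of ZT18 against ZT6 was -0.74 in HF.NOB and 0.025 in HF, so the medians had opposite signs, with that in HF close to 0. It rests on the same HF.NOB library at ZT6, and the difference was not tested.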

How the results depend on the processing

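The median log2 fold of the members in HF.NOB against HF at ZT6, 0.65, was 0.62 with median-ratio factors, 0.57 with TMM factors, 0.58 with totals that left out the mitochondrial genome and the 20 most abundant genes, 0.13 with the length trend subtracted and 0.13 with length and GC trends subtracted. With those reduced totals the medians of HF.NOB against HF at ZT18 and of HF against RD at ZT6 and ZT18 were -0.099, 0.061 and 0.11. HF against RD at ZT6 gave 0.028 with TMM factors, 0.042 with either trend and -0.0064 with upper-quartile factors, so its sign is not settled, and at ZT18 it gave 0.10 with either trend and 0.057 without members whose exons overlap another gene, an alternative chosen after seeing the data. Also chosen then were TMM factors and the length trend for the other comparisons, which gave 0.61 and 0.20 for HF.NOB against RD at ZT6 and -0.67 and -0.17 for ZT18 against ZT6 in HF.NOB, and the length trend gave -0.048 for ZT18 against ZT6 in RD.

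The length-subtracted median of 0.13 was 0.15 with 20 bins, 0.058 with the longest protein-coding transcript, 0.17 with the mean length of the annotated transcripts and 0.11 with a minimum mean of 500. With alternatives chosen after seeing the data it was 0.058 (principal transcript), 0.20 (coding length) and 0.16 (genes of every type). The large minus small difference of -0.03 was 0.038 after Mrps30 and Mrps18a were moved and Mrps36 left out, and -0.11 with length subtracted, so this sign also changed. Of the members, 3 were called by edgeR in HF against RD, 6 without a filter on low counts, 0 with all 6 libraries in 1 fit and 0 with DESeq2. The 54 other values of this kind moved by less than counting error or, for counts, by less than 1.5 times. Medians were read against counting error, since 1 library per condition gives no other spread. The cause of these shifts was not tested.

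No paired analysis was possible because each condition has 1 library and the labels give no replicate numbers. Folds within each time are ratios of single libraries. The edgeR and DESeq2 fits, with time as a term, give 1 diet difference over both times.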

Other observations

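Mrpl23-ps1, a pseudogene of Mrpl23 left out of the members, had a mean value of 57.0. The adipocyte markers summed to 2261 in HF.NOB, 3088 in HF and 1324 in RD at ZT18.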
